A study of Arabidopsis thaliana with 30 samples.

Results

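Detached Arabidopsis thaliana leaf blades were compared 2 d after detachment on medium with N-1-naphthylphthalamic acid (NPA) against medium without it (mock), over all genes of the deposited tables. Those 4 libraries, 2 per group, are taken from 30 libraries in 15 groups. The plants were wild type, accession Col-0, and were raised on medium with 1% sucrose for 12 d at 22 °C under 16 h of light and 8 h of dark. Their first leaf pair was cut where blade and petiole meet, and the blades were laid on sucrose-free B5 medium in 24 h light, and RNA came from the wounded end of the blade. The other groups, used here for the shared estimate of spread and for the NPA effect at other times, were freshly cut blades (T0) and mock and NPA blades at 6 h, 12 h, 24 h, 3 d, 4 d and 5 d. Neither the NPA dose nor the number of blades per library is given in the sources used here. Whether replicates were separate plantings is not stated, so a p-value reflects only differences between these samples, and their spread could be technical. The spread behind each SE and p-value is pooled over all 15 groups. For a gene absent from many groups, that spread can be smaller than among the 4 libraries compared. Of 37686 genes in the tables, 20654 had 1 TPM or more in at least 2 of the 30 libraries and were tested.

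NPA blocks the cell-to-cell movement of auxin by acting on the PIN-type efflux carriers. In cut leaves auxin gathers near the wound in the vascular tissue and procambium. There it turns on WOX11, which marks root founder cells, and LBD16, and the founder cells then divide into a root primordium. Levels are TPM, a length-corrected share of all transcripts in a library, and are given for replicates 1 and 2 of each group in that order. Log2 fold changes ± SE are NPA minus mock, of log2(TPM + 1), on which changes of genes near or below 1 TPM appear smaller than they are. An adjusted p under 0.05 was required for a call (limma, all 30 libraries in 1 fit, two-sided, Benjamini-Hochberg).

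The depth of the libraries is unknown, since TPM holds no counts. Between 18115 and 18529 genes reached 1 TPM in the 4 libraries. Pearson's r of log2 values across the tested genes, which are not independent replicates, was 0.973 within mock, 0.977 within NPA and 0.963 to 0.974 between the groups. The tissue label could be checked against markers: 5 of 5 mesophyll, 7 of 7 phloem and 4 of 4 epidermis markers were measured, while 4 of 4 root cap and 5 of 5 root hair markers stood below 1 TPM in all 4 libraries. The 49 photosynthesis genes summed to 136120.0 and 167650.0 TPM in mock replicates 1 and 2 and to 149480.0 and 200740.0 TPM in NPA replicates 1 and 2, so they were higher in replicate 2 of each group. Their part in other results was not tested. An exact 0 can be a failed estimate: AT2G01020 and AT3G41979, whose values are identical, were listed at 0 in mock replicate 1 and at 967, 798 and 721 TPM in the other libraries.

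At 2 d far more genes were lower under NPA than higher. The test called 763 genes, 3.69% of those tested. Of these, 676 were lower (3.27% of all tested) and 87 were higher (0.421%), and 349 and 52 of them differed at least 2-fold. The libraries of mock and NPA did not overlap for any of the 763. Among all tested genes NPA lay wholly below mock in 31.5% and wholly above it in 10.8%. At an unadjusted p under 0.05 there were 2213 lower and 390 higher genes. The median log2 fold change over all tested genes was -0.06, against -1.02 for the genes called lower and 1.17 for those called higher. Many called genes had low levels: the median mock mean was 6.22 TPM for genes called lower and 2.1 TPM for genes called higher, beside 12 TPM for all tested genes. The total depended on each library. Without NPA replicate 1 it was 54 higher and 320 lower, without NPA replicate 2 54 and 283, without mock replicate 1 33 and 299, and without mock replicate 2 69 and 358. Called in all 4 of these fits were 27 higher and 189 lower genes. A fit without 1 library leaves 1 in its group, and the spread is then taken from the other groups. A call kept in such a fit therefore adds little support. In a fit to the 4 libraries alone no gene was called (469 higher and 2386 lower at an unadjusted p under 0.05).

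**Figure D1:**
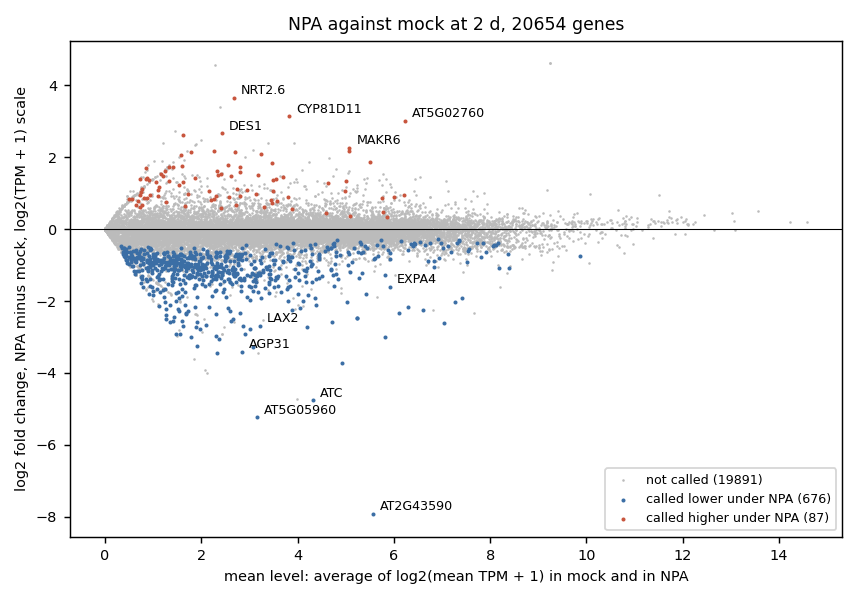
Each point is 1 of the 20654 tested genes, with its mean level on the horizontal axis and its log2 fold change, NPA minus mock, on the vertical axis, both on the log2(TPM + 1) scale. The 676 genes called lower are blue, the 87 called higher are red, and the lowest of all is AT2G43590 at -7.92.

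The gene with the largest change in either direction was AT2G43590 (chromosome 2, 18081304 to 18082776, minus strand in TAIR10.1), annotated as a member of the chitinase family. It has no symbol and was named after its value was seen. It stood at 909.8 and 564 TPM in mock and 1.36 and 2.72 TPM under NPA (log2 fold change -7.92 ± 0.68, adjusted p = 1.57e-06). The groups were thus far apart, with both NPA libraries under 3 TPM. Its transcripts were near absent at T0 (0 and 2.39 TPM) and had reached 181 and 541 TPM in mock at 24 h. ATC (AT2G27550, chromosome 2, 11773187 to 11774746, plus strand), a relative of the flowering repressor TFL1, stood at 96.5 and 100.4 TPM in mock and 4.65 and 1.37 TPM under NPA (log2 fold change -4.76 ± 0.66, adjusted p = 3.03e-04). AT5G05960, a lipid-transfer-like protein gene without a symbol and likewise named afterwards, stood at 45.2 and 63.2 TPM in mock and 0.56 and 0.34 TPM under NPA (log2 fold change -5.24 ± 0.34). In both the groups were far apart, with every NPA library below 5 TPM. AGP31, an arabinogalactan protein gene of the cell wall, stood at 24.9 and 19.8 TPM in mock and 0.87 and 1.56 TPM under NPA (log2 fold change -3.41 ± 0.44). PR-1-LIKE, a relative of the pathogenesis-related protein PR1, stood at 10.5 and 10.9 TPM in mock and 0.24 and 0.21 TPM under NPA (log2 fold change -3.25 ± 0.17, adjusted p = 5.47e-09). Its replicates differed by less than 1 TPM in each group.

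Also among the 10 lowest genes with a symbol were wall and peptide genes. TBL36, of a family that acetylates wall polysaccharides, had a log2 fold change of -2.79 ± 0.32, and ATSBT5.2, a subtilisin-like protease gene, one of -2.59 ± 0.21. The root meristem growth factor gene RGF6 stood at 15.8 and 17.4 TPM in mock and 0 and 4.39 TPM under NPA (log2 fold change -2.92 ± 0.77, adjusted p = 0.0427), so 1 NPA library was listed at 0 and the other was not. The defensin genes PDF1.2c and PDF1.2b had log2 fold changes of -3.01 ± 0.75 (adjusted p = 0.029) and -2.68 ± 0.62 (adjusted p = 0.0184). Their near-identical relative PDF1.2 stood at 249.8 and 714 TPM in mock and 67.2 and 102 TPM under NPA and was not called (adjusted p = 0.344). Reads of these copies could be split in more than 1 way. The RGF6 call was lost without NPA replicate 1 (adjusted p = 0.452), mock replicate 1 (0.197) or mock replicate 2 (0.19). PDF1.2c and PDF1.2b lost theirs without NPA replicate 1 (adjusted p = 0.155 and 0.0842), NPA replicate 2 (0.15 and 0.155) or mock replicate 2 (0.277 and 0.205).

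Genes higher under NPA included transporters, detoxification enzymes and a growth peptide. NRT2.6, of the high-affinity nitrate transporter family, stood at 0.9 and 0.65 TPM in mock and 28.5 and 15.9 TPM under NPA (log2 fold change 3.66 ± 0.49, adjusted p = 2.02e-04). CYP81D11 (AT3G28740, chromosome 3, 10788698 to 10790553, minus strand), a cytochrome P450 gene known for its induction by foreign chemicals, stood at 3.38 and 4.19 TPM in mock and 43.2 and 38.8 TPM under NPA (log2 fold change 3.14 ± 0.40, adjusted p = 1.45e-04). In both, the lower NPA library was above the higher mock library several times over. AT5G02760, a protein phosphatase 2C family gene without a symbol that was named after its value was seen, stood at 26.3 and 23.5 TPM in mock and 156 and 272 TPM under NPA (log2 fold change 3.00 ± 0.33). DES1, an enzyme that releases sulfide from cysteine, had a log2 fold change of 2.66 ± 0.43. MAKR6, of the membrane-associated kinase regulators, stood at 10.06 and 18.9 TPM in mock and 56.5 and 87.4 TPM under NPA (log2 fold change 2.27 ± 0.47, adjusted p = 0.00824). Its call was lost without NPA replicate 2 (adjusted p = 0.13) or mock replicate 1 (0.148). The glucosinolate transporter gene GTR2 stood at 20.5 and 24.7 TPM in mock and 94.2 and 77.0 TPM under NPA (log2 fold change 1.87 ± 0.28). PSK2, a precursor of the growth peptide phytosulfokine, stood at 4.18 and 5.65 TPM in mock and 19.7 and 20.12 TPM under NPA (log2 fold change 1.83 ± 0.26). LAC7, a laccase gene, stood at 2.54 and 3.16 TPM in mock and 13.6 and 10.05 TPM under NPA (log2 fold change 1.73 ± 0.21). For these genes the NPA libraries lay wholly above the mock libraries. That held for every gene called higher and was a condition for naming the 10 highest, so it adds no support.

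Several genes that mark root founder cells were lower under NPA. Of 22 measured members of the founder and primordium list, 6 were lower and 0 higher, which is 27.3% beside 3.27% of all tested genes, and the list median was -0.15 beside -0.06. WOX11 (AT3G03660, chromosome 3, 889166 to 892229, minus strand) stood at 5.82 and 3.66 TPM in mock and was listed at 0 in both NPA libraries, a difference of -2.50 ± 0.20 on the log2(TPM + 1) scale (adjusted p = 6.33e-07). It was listed at 0 in the NPA libraries of all 7 times and at T0. LBD16 (AT2G42430, chromosome 2, 17663353 to 17665337, plus strand), a lateral organ boundaries factor gene, stood at 6.99 and 4.03 TPM in mock and 0.37 and 0.24 TPM under NPA (log2 fold change -2.28 ± 0.22, adjusted p = 7.99e-06). Mock and NPA were thus separated in every library, as for every called gene, and the NPA libraries stayed close to the T0 value of 0.04 TPM. GATA23, a GATA factor gene of founder cell identity, stood at 3.65 and 1.74 TPM in mock and 0.18 and 0 TPM under NPA (log2 fold change -1.72 ± 0.27, adjusted p = 0.00105). MAKR4, a membrane-associated kinase regulator gene of lateral root formation, stood at 13.4 and 5.73 TPM in mock and 0.64 and 0.27 TPM under NPA (log2 fold change -2.77 ± 0.26, adjusted p = 6.42e-06). LRP1, first known from lateral root primordia, stood at 2.99 and 2.57 TPM in mock and 0.09 and 0.04 TPM under NPA (log2 fold change -1.83 ± 0.16, adjusted p = 1.76e-06). With 1 of the 4 libraries left out, log2 fold changes ran from -2.77 to -2.22 (WOX11) and -2.62 to -1.95 (LBD16). They ran from -2.10 to -1.33 (GATA23), -3.32 to -2.22 (MAKR4) and -1.91 to -1.75 (LRP1). PLT3, an AP2 factor gene of root meristems, stood at 4.73 and 3.85 TPM in mock and 2.05 and 2.02 TPM under NPA (log2 fold change -0.80 ± 0.20, adjusted p = 0.0315). The PLT3 call was lost without NPA replicate 1 (adjusted p = 0.142), NPA replicate 2 (0.186), mock replicate 1 (0.296) or mock replicate 2 (0.0728).

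Some other founder and primordium genes were low or listed at 0 in both groups at 2 d. WOX5, of the root stem cell niche, stood at 0.64 and 0.41 TPM in mock and 0.55 and 0.41 TPM under NPA (log2 fold change -0.04 ± 0.27, adjusted p = 1), and the groups overlapped. WOX7 stood at 0.24 and 0.95 TPM in mock and was listed at 0 in both NPA libraries, with a difference on the log2(TPM + 1) scale that missed the threshold (adjusted p = 0.361). LBD29, a relative of LBD16, was listed at 0 in all 4 libraries and was not tested. Of the 34 listed members 10 were listed at 0 in all 4 libraries, among them PLT1, PLT2 and WOX12. The endodermal regulator genes SHR and SCR had log2 fold changes of -0.01 ± 0.17 and 0.11 ± 0.33 and were not called. In whole tissue, fewer cells of a type and less RNA per cell cannot be told apart.

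**Figure D2:**
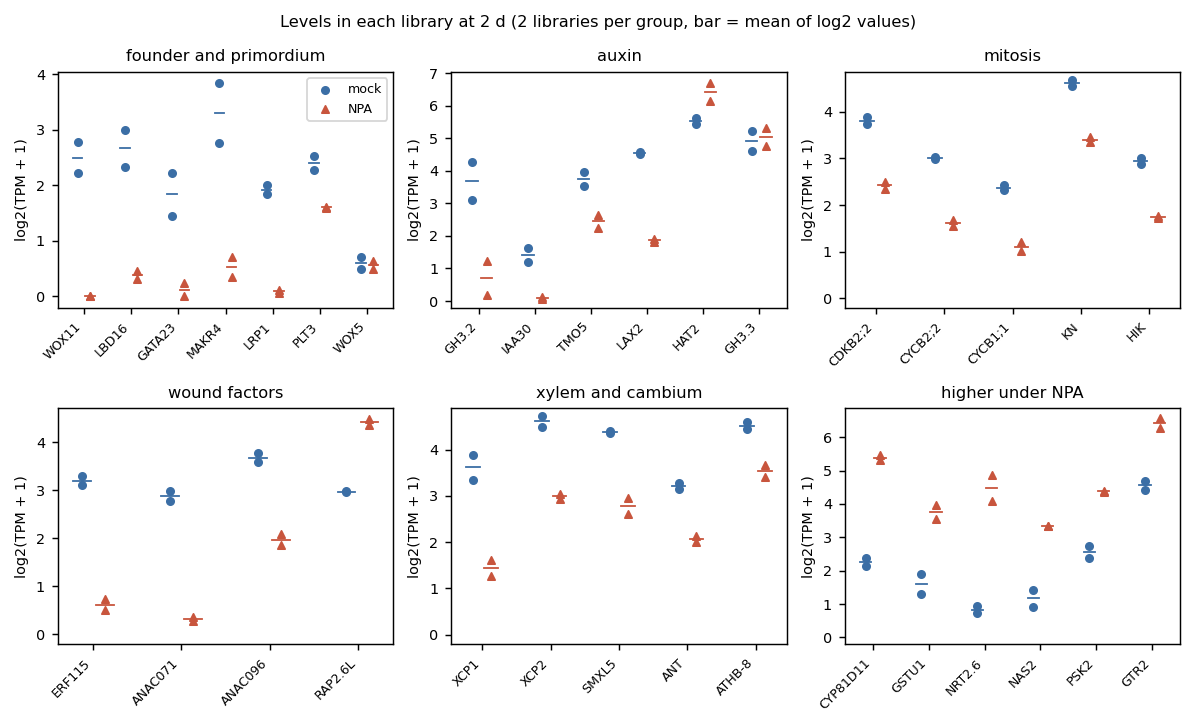
Points are the levels of single libraries at 2 d as log2(TPM + 1), blue for mock and red for NPA, with a bar at the mean of the log2 values of each group. WOX11 is at 0 in both NPA libraries, GH3.3 and WOX5 overlap between the groups, and CYP81D11 stands at 43.2 and 38.8 TPM under NPA beside 3.38 and 4.19 TPM in mock.

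Auxin response genes did not move together. Of 45 measured members 7 were lower (15.6% beside 3.27% of all tested genes) and 1 higher, with a median of -0.18. GH3.2 (AT4G37390, chromosome 4, 17579618 to 17582022, plus strand), an auxin-inducible enzyme gene that conjugates auxin to amino acids, stood at 18.4 and 7.53 TPM in mock and 0.15 and 1.34 TPM under NPA (log2 fold change -2.97 ± 0.45, adjusted p = 7.22e-04). IAA30, of the auxin-regulated Aux/IAA family, stood at 1.31 and 2.1 TPM in mock and 0.05 and 0.1 TPM under NPA (log2 fold change -1.32 ± 0.24, adjusted p = 0.00314). TMO5, a factor gene of vascular tissue that is a direct target of the auxin response factor MONOPTEROS, stood at 14.6 and 10.5 TPM in mock and 5.28 and 3.77 TPM under NPA (log2 fold change -1.29 ± 0.30, adjusted p = 0.0187). In each of them both NPA libraries were below both mock libraries, as for every gene called lower. IAA27 had a log2 fold change of -1.20 ± 0.24, and IAA20, IAA13 and ATHB-8 completed the 7. HAT2, a homeodomain gene induced by auxin and the single member that was higher, stood at 42.2 and 48.6 TPM in mock and 69.9 and 103 TPM under NPA (log2 fold change 0.89 ± 0.24, adjusted p = 0.0427). IAA20, IAA13 and HAT2 were named only to complete these counts. The TMO5 call was lost without NPA replicate 2 (adjusted p = 0.224) or mock replicate 1 (0.233), the IAA30 call without mock replicate 2 (0.0609), and the IAA27 call without NPA replicate 1 (0.0511), NPA replicate 2 (0.0649) or mock replicate 1 (0.101). With 1 library left out 4 to 6 members were lower, and no member was higher except without NPA replicate 1, nor with TMM factors or quantile normalization.

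Other auxin response genes were not called at 2 d. GH3.3, a close relative of GH3.2, stood at 23.4 and 36.4 TPM in mock and 25.9 and 38.5 TPM under NPA (log2 fold change 0.11 ± 0.29, adjusted p = 0.993), and the groups overlapped. Its level under NPA was far above mock at 6 h (34.1 and 36.1 against 1.81 and 2.5 TPM) and below it at 5 d (1.93 and 3.58 against 20.9 and 13.1 TPM), so that at 2 d the courses crossed. The repressor genes IAA19 and IAA29 had log2 fold changes of -0.25 ± 0.53 and -0.08 ± 0.34 (adjusted p = 0.986 and 1).

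Of 38 measured auxin transport genes 3 were lower (7.89% beside 3.27% of all tested genes), 0 higher, and the median was -0.07 (0.02 with TMM factors). LAX2, an auxin influx carrier gene of vascular tissue, stood at 21.9 and 23.0 TPM in mock and 2.54 and 2.78 TPM under NPA (log2 fold change -2.68 ± 0.37, adjusted p = 2.6e-04), with replicates that agreed within 2 TPM. WAT1, a vacuolar auxin transporter gene that is needed for fibre walls, stood at 256 and 246 TPM in mock and 133 and 133 TPM under NPA (log2 fold change -0.91 ± 0.22, adjusted p = 0.0225). The influx carrier gene AUX1 stood at 48.7 and 44.0 TPM in mock and 29.4 and 29.5 TPM under NPA (log2 fold change -0.64 ± 0.16, adjusted p = 0.0352). LAX2 alone of the 3 kept its call in all fits with 1 library left out. WAT1 and AUX1 lost theirs in all 4, with adjusted p from 0.103 to 0.163 and from 0.0979 to 0.284. The efflux carrier gene PIN3 and the influx carrier gene LAX3 had log2 fold changes of 0.05 ± 0.15 and -0.07 ± 0.22 and overlapped between groups. Of 25 auxin synthesis genes only TAA1, the tryptophan aminotransferase gene of the first step, was called: it stood at 4.85 and 2.34 TPM in mock and 10.5 and 6.91 TPM under NPA (log2 fold change 1.11 ± 0.27, adjusted p = 0.0245). That call was lost without NPA replicate 1 (adjusted p = 0.264) or mock replicate 2 (0.327). YUC8, of the last step, stood below 1 TPM in all 4 libraries. None of 16 auxin inactivation and 29 auxin perception genes were called by limma, and at an unadjusted p under 0.05 there were 2 lower and 1 higher in the first list and 1 lower in the second.

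Promoters are shown for 5 of the 3 lowest and 3 highest called genes of the auxin response and chemical detoxification lists, so that the elements at which auxin response factors and TGA factors are known to bind can be seen beside the changes. Each is the 250 bases before the annotated gene start, read from the RefSeq assembly TAIR10.1 and written 5′ to 3′ on the gene's own strand. Capitals mark matches to TGTCTC and TGTCGG, elements bound by auxin response factors, and to TGACG, the element bound by TGA factors, searched on both strands. These motifs do not overlap one another in the windows shown.
GH3.2, chr4:17579368-17579617, plus strand: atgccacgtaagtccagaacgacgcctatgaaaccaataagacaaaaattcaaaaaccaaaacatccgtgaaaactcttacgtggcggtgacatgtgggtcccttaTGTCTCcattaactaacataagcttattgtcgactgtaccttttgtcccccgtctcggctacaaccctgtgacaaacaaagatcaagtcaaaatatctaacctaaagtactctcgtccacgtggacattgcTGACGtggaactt
TMO5, chr3:9369249-9369498, plus strand: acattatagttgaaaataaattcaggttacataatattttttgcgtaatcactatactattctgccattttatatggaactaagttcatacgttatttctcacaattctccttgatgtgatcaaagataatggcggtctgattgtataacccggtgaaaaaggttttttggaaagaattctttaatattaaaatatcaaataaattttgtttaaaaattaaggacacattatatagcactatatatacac
CYP81D11, chr3:10790554-10790803, minus strand: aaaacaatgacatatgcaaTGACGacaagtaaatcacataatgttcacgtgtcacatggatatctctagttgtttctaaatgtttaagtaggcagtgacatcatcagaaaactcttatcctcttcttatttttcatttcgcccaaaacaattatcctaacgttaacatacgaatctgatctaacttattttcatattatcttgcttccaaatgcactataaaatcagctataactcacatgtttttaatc
GSTU1, chr2:12632539-12632788, minus strand: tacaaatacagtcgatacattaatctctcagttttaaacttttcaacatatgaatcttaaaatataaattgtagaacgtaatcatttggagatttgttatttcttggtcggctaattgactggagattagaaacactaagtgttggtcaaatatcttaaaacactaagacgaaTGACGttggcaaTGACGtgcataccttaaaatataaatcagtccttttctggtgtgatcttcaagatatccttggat
GSTU2, chr2:12631322-12631571, minus strand: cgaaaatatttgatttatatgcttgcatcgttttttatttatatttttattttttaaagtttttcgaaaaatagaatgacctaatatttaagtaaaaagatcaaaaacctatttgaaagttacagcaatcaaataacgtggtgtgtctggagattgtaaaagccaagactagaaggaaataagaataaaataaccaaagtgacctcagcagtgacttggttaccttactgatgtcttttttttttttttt
The GH3.2 window held 1 TGTCTC and 1 TGACG, that of CYP81D11 1 TGACG and that of GSTU1 2 TGACG. Those of TMO5 and GSTU2 held none of the 3 motifs, and the GSTU2 window overlaps the neighbouring GSTU1 gene. Over 27443 protein-coding genes on the 5 chromosomes, 10.9% of such windows held TGTCTC, 4.16% TGTCGG and 18.6% TGACG. A match describes the letters only.

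Most measured genes of mitosis and cytokinesis were lower under NPA. Of 41 measured members 26 were lower and 0 higher, or 63.4% beside 3.27% of all tested genes, and the median log2 fold change was -1.0 beside -0.06. It was -0.92 with TMM factors and -0.83 after quantile normalization. CDKB2;2 (AT1G20930, chromosome 1, 7292389 to 7294746, minus strand), a cyclin-dependent kinase gene of the G2 to M transition, stood at 13.7 and 12.4 TPM in mock and 4.65 and 4.09 TPM under NPA (log2 fold change -1.39 ± 0.20, adjusted p = 4.4e-04). The mitotic cyclin gene CYCB2;2 stood at 7.14 and 6.89 TPM in mock and 1.94 and 2.2 TPM under NPA (log2 fold change -1.39 ± 0.22, adjusted p = 0.00108). Replicates lay close together, and each NPA library was below each mock library, as for every gene called lower. MAD2, of the spindle checkpoint, and CDKB2;1 had log2 fold changes of -1.32 ± 0.26 and -1.30 ± 0.30. CYCB1;1, a cyclin gene used as a mark of dividing cells, stood at 4.39 and 3.99 TPM in mock and 1.31 and 1.01 TPM under NPA (log2 fold change -1.27 ± 0.25, adjusted p = 0.00556). KN, the cytokinesis syntaxin KNOLLE, and HIK, a kinesin of the dividing plate, had log2 fold changes of -1.22 ± 0.27 and -1.20 ± 0.18 and were named after their values were seen. Summed over the 41 genes, the level was 412 and 331 TPM in mock and 231 and 195 TPM under NPA, against 199.5 and 251 TPM at T0.

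Many of these calls depended on single libraries, as did most calls over all tested genes. With 1 library left out the lower members were 11 (NPA replicate 1), 9 (NPA replicate 2), 9 (mock replicate 1) and 14 (mock replicate 2), and 7 were called in all of these fits. CYCB1;1 lost its call without NPA replicate 2 (adjusted p = 0.0777) or mock replicate 1 (0.0663), MAD2 without NPA replicate 1 (0.0522), NPA replicate 2 (0.0502) or mock replicate 1 (0.061), and CDKB2;1 in all 4 fits (0.0716 to 0.165). A replicate block in the fit left 5 members lower, beside 26 in the main fit. Of all tested genes 247 were lower with that block. CDKB2;2 and CYCB2;2 kept their calls with it (limma, adjusted p = 0.0288 and 0.0387). CYCB1;1 (0.0933), MAD2 (0.11) and CDKB2;1 (0.189) lost theirs. With only genes of a mean of at least 5 TPM tested, 6 members were lower, beside 263 of the 14465 genes then tested. Members below that mean were not tested then, so the 6 and the 26 are not of the same set. TMM factors and quantile normalization gave 25 each, and a fit without T0 gave 30. Of 37 DNA replication genes 0 were called (limma), with a median of -0.32 beside -0.06 for all tested genes. At an unadjusted p under 0.05, 9 of them were lower, beside 2213 of all 20654 tested genes. The fit without T0 called 4 of them lower, beside 923 of all tested genes. Of 25 ribosome biogenesis genes 0 were called, with a median of -0.31 and 5 lower at an unadjusted p under 0.05. Log2 fold changes lay below 0 in 33 of the 37 and 24 of the 25, beside 61% of all tested genes.

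At earlier times the mitotic genes showed no such difference. No member was lower at 6 h, 12 h or 24 h (median -0.05, 0.10 and -0.14), when 0.683%, 1.23% and 1.47% of all tested genes were called lower. At 3 d 33 were lower, and at 4 d and 5 d 35 each (5.14%, 9.3% and 15.1% of all tested genes). In mock the 41 genes summed to 239.7 and 324 TPM at 24 h and to 410.2 and 429 TPM at 3 d, while under NPA they summed to 320.4 and 226 TPM at 24 h and to 218 and 225 TPM at 3 d. The test of the change itself, the NPA effect at 2 d minus that at 24 h, called none of the 41 (limma, smallest adjusted p = 0.446). At an unadjusted p under 0.05 that difference was lower for 28 of the 41, with a median of -0.85, beside 456 of 20654 tested genes and a median of 0.

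**Figure D3:**
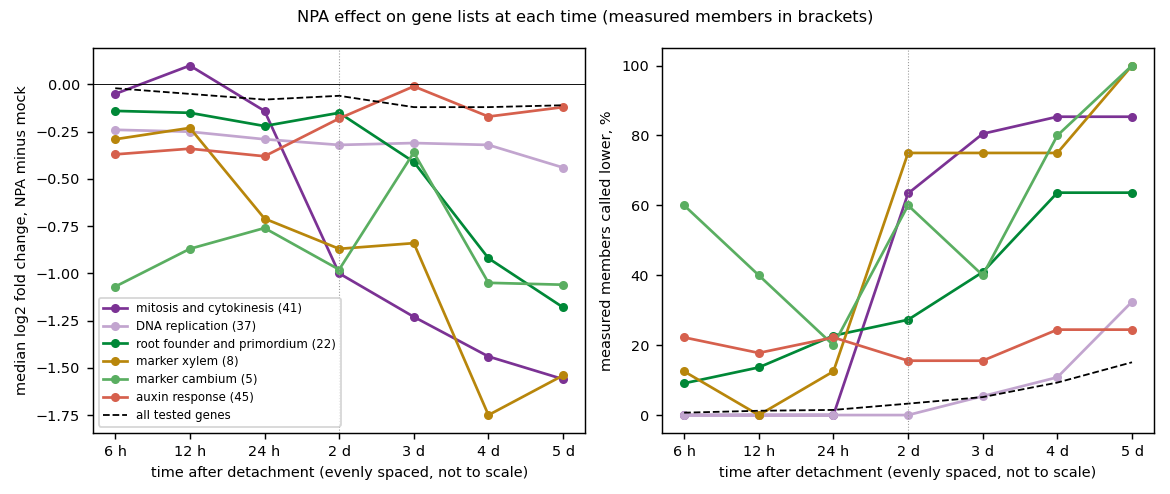
The left panel gives the median log2 fold change, NPA minus mock, of 6 lists at each time, and the right panel the share of measured members called lower, with the values over all tested genes as dashed lines and 2 d as a dotted line. Mitosis genes go from a median of -0.14 at 24 h to -1.0 at 2 d, while cambium markers are already at -1.07 at 6 h.

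Xylem and cambium markers were lower beside these changes. Of 8 xylem markers 6 were lower (75% beside 3.27% of all tested genes), 0 higher, and the median was -0.87. XCP1, a protease gene of dying xylem vessels, stood at 9.22 and 13.8 TPM in mock and 2.05 and 1.41 TPM under NPA (log2 fold change -2.18 ± 0.35, adjusted p = 0.00108). Its relative XCP2 stood at 21.6 and 25.3 TPM in mock and 6.68 and 7.22 TPM under NPA (log2 fold change -1.62 ± 0.27, adjusted p = 0.00144). VND7, the master regulator gene of vessel formation, stood at 1.33 and 1.01 TPM in mock and 0.18 and 0.11 TPM under NPA (log2 fold change -0.92 ± 0.18, adjusted p = 0.00626), and the cellulose synthase gene of secondary walls CESA8 had a log2 fold change of -0.98 ± 0.21. The marker list summed to 68.3 and 79.7 TPM in mock and to 26.4 and 31.0 TPM under NPA, with 160.4 and 188 TPM at T0. Without 1 library, 2 or 3 of the 8 were lower. VND7 lost its call without NPA replicate 2 (adjusted p = 0.0729) or mock replicate 1 (0.0988), and CESA8 without NPA replicate 1 (0.139), mock replicate 1 (0.11) or mock replicate 2 (0.0698).

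Of 5 cambium markers 3 were lower (60% beside 3.27% of all tested genes), 0 higher, with a median of -0.98. SMXL5, a gene of early vascular development, stood at 20.18 and 19.5 TPM in mock and 6.79 and 5.09 TPM under NPA (log2 fold change -1.60 ± 0.26, adjusted p = 0.00126). ANT, an AP2 factor gene of dividing tissue, stood at 8.74 and 7.89 TPM in mock and 3.04 and 3.38 TPM under NPA (log2 fold change -1.15 ± 0.26, adjusted p = 0.0154). ATHB-8, a homeodomain gene of the procambium that also counts among the auxin response genes, stood at 20.6 and 23.2 TPM in mock and 9.59 and 11.7 TPM under NPA (log2 fold change -0.98 ± 0.17, adjusted p = 0.00256). The stem cell genes WOX4 and PXY had log2 fold changes of -0.68 ± 0.21 and -0.46 ± 0.22 and were not called. Summed, the 5 stood at 80.6 and 82.8 TPM in mock and 40.1 and 41.4 TPM under NPA, beside 27.5 and 46.3 TPM at T0. ANT lost its call in each fit without 1 library (adjusted p from 0.0687 to 0.137) and ATHB-8 without NPA replicate 1 (0.0522). None of 7 phloem, 5 mesophyll, 4 epidermis, 8 stomatal lineage and 6 root endodermis markers were called by limma or passed an unadjusted p of 0.05. The phloem markers summed to 407 and 405 TPM in mock and to 427 and 398 TPM under NPA. The part of the vascular tissue in the other results was not tested.

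Wound-induced transcription factor genes changed in both directions. Of 49 wound and jasmonate genes 5 were lower (10.2% beside 3.27% of all tested genes) and 1 higher (2.04% beside 0.421%), with a median of 0.02. ERF115, an AP2 factor gene that drives the replacement of lost stem cells, stood at 7.58 and 8.89 TPM in mock and 0.67 and 0.42 TPM under NPA (log2 fold change -2.58 ± 0.14, adjusted p = 6.27e-09). ANAC071 and ANAC096, NAC factor genes of tissue reunion in cut stems, stood at 6.95 and 5.81 TPM in mock and 0.29 and 0.21 TPM under NPA (log2 fold change -2.56 ± 0.29, adjusted p = 3.71e-05) and at 12.6 and 11.0 TPM in mock and 3.24 and 2.61 TPM under NPA (log2 fold change -1.71 ± 0.21, adjusted p = 1.03e-04). RAP2.6L, an ERF factor gene that in cut stems is known to be active where auxin is low, stood at 6.87 and 6.79 TPM in mock and 19.4 and 21.6 TPM under NPA (log2 fold change 1.45 ± 0.23, adjusted p = 8.51e-04). No library of one group reached the range of the other for these 4. With 1 library left out, log2 fold changes ran from -2.70 to -2.46 (ERF115) and -2.67 to -2.45 (ANAC071). They ran from -1.82 to -1.59 (ANAC096) and 1.38 to 1.53 (RAP2.6L). Groups that did not overlap were shared by all 763 called genes. The log2 fold change of RAP2.6L was 3.93 at 6 h, 2.66 at 24 h, -0.06 at 3 d and -1.19 at 5 d. PDF1.2b, described above, and ST2A, a jasmonate-modifying enzyme gene (log2 fold change -1.36 ± 0.35), completed the 5 that were lower. With 1 library left out 3 or 4 were lower and 1 was higher.

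**Figure D4:**
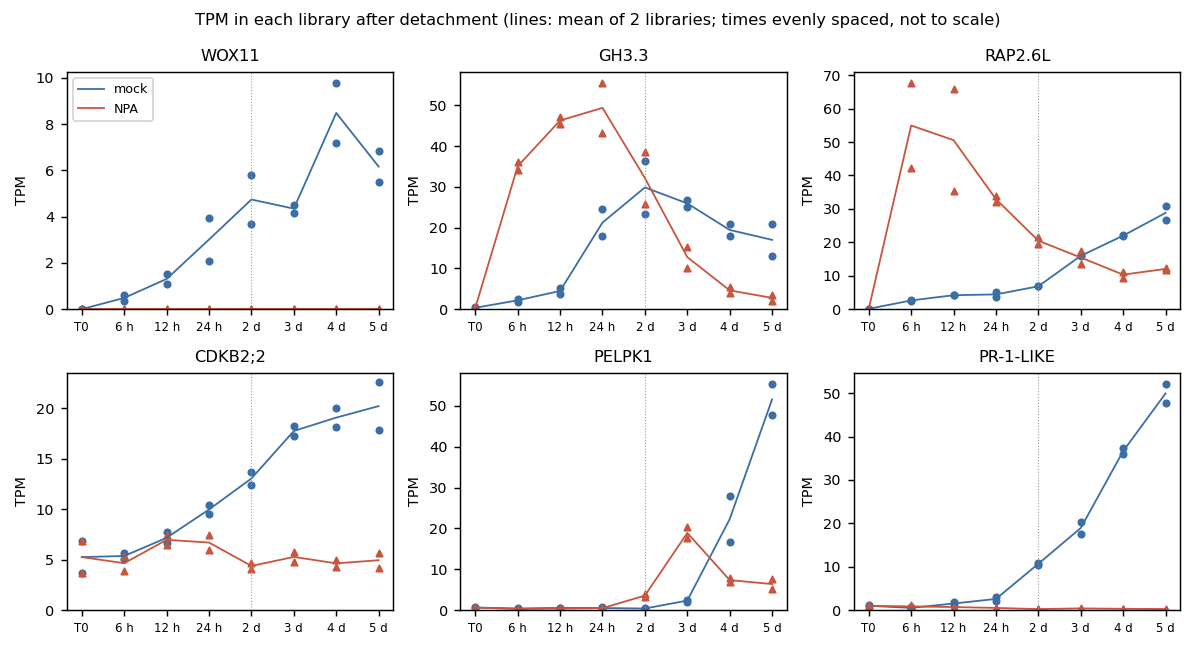
Points are TPM values of single libraries from T0 to 5 d, blue for mock and red for NPA, with lines through the group means, and 2 d is marked by a dotted line. WOX11 is at 0 under NPA throughout, GH3.3 and RAP2.6L start higher under NPA and end lower, and PELPK1 is higher under NPA at 2 d and 3 d and lower from 4 d.

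Some detoxification and iron genes were higher under NPA. Of 55 chemical detoxification genes 4 were higher, 7.27% beside 0.421% of all tested genes, and 2 were lower, 3.64% beside 3.27%. The list median was 0.20. Besides CYP81D11, the glutathione S-transferase gene GSTU1 stood at 1.46 and 2.74 TPM in mock and 10.7 and 14.6 TPM under NPA (log2 fold change 2.15 ± 0.24, adjusted p = 3.34e-05). GSTU2, its neighbour on chromosome 2, stood at 0.47 and 0.67 TPM in mock and 2.25 and 3.8 TPM under NPA (log2 fold change 1.33 ± 0.18, adjusted p = 1.89e-04). These tandem copies are related in sequence and could share reads. GSTU24 had a log2 fold change of 0.85 ± 0.22, while GSTU12 (-1.06 ± 0.19) and GSTU11 (-0.78 ± 0.19) were lower. GSTU12 lost its call without mock replicate 1 (adjusted p = 0.0746). With 1 library left out 3 or 4 members were higher and 0 or 1 lower.

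Of 29 iron genes 3 were higher (10.3% beside 0.421% of all tested genes) and 1 lower (3.45% beside 3.27%), with a median of 0.05. NAS2, of the synthesis of the metal chelator nicotianamine, stood at 0.89 and 1.7 TPM in mock and 9.18 and 9.2 TPM under NPA (log2 fold change 2.17 ± 0.28, adjusted p = 1.48e-04). The transporter gene YSL1 of iron-nicotianamine complexes stood at 12.7 and 17.5 TPM in mock and 37.0 and 38.2 TPM under NPA (log2 fold change 1.28 ± 0.31, adjusted p = 0.0262). FRO2, the ferric reductase of iron uptake in roots, stood at 0.19 and 0.14 TPM in mock and 1.53 and 2.52 TPM under NPA (log2 fold change 1.36 ± 0.29, adjusted p = 0.00962). VTL5, of the vacuolar iron transporter family, stood at 16.0 and 15.2 TPM in mock and 0.31 and 0.74 TPM under NPA (log2 fold change -3.46 ± 0.39, adjusted p = 3.76e-05). Its NPA libraries stood below 1 TPM. YSL1 lost its call in all 4 fits without 1 library (adjusted p from 0.0552 to 0.283) and FRO2 without NPA replicate 2 (0.159), mock replicate 1 (0.0681) or mock replicate 2 (0.073).

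Members of the expansin and xyloglucan enzyme list were lower where they were called. Of 41 measured members 5 were lower (12.2% beside 3.27% of all tested genes), 0 higher, with a median of -0.26. EXPA4, an expansin gene, stood at 97.1 and 111 TPM in mock and 35.0 and 32.2 TPM under NPA (log2 fold change -1.60 ± 0.12, adjusted p = 3.95e-07). EXPB3, another expansin gene, stood at 51.1 and 40.6 TPM in mock and 16.2 and 13.1 TPM under NPA (log2 fold change -1.58 ± 0.31, adjusted p = 0.00626). XTH15 and XTH20, enzymes that cut and rejoin xyloglucan, had log2 fold changes of -1.59 ± 0.23 and -2.02 ± 0.42. EXT3, named to complete the count, had a log2 fold change of -1.09 ± 0.26. It is an extensin gene, not an expansin or xyloglucan enzyme gene, though the list holds it. EXPB3 and XTH20 lost their calls without NPA replicate 2 (adjusted p = 0.0891 and 0.0964) or mock replicate 1 (0.0945 and 0.194). With 1 library left out 2 to 4 members were lower, and 2 were higher without NPA replicate 1.

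Few genes of other hormones were called, beside 3.27% of all tested genes lower and 0.421% higher. Lower were 3.85% of ethylene, 6.45% of cytokinin and 7.14% of brassinosteroid and gibberellin genes. Higher were 7.14% of abscisic acid, 3.23% of cytokinin and 3.57% of brassinosteroid and gibberellin genes. Each of these shares rests on 1 or 2 genes. The ethylene synthesis gene ACS8 stood at 2.13 and 2.68 TPM in mock and 0.29 and 0.44 TPM under NPA (log2 fold change -1.32 ± 0.18, adjusted p = 2.61e-04) and was the 1 call among 26 ethylene genes. In the abscisic acid list 2 of 28 were higher: CYP707A4, which breaks the hormone down, at 0.26 and 0.67 TPM in mock and 5.24 and 4.91 TPM under NPA (log2 fold change 2.07 ± 0.37, adjusted p = 0.00288), and AAO3, which makes it, with a log2 fold change of 0.73 ± 0.17. Cytokinin genes had 1 higher and 2 lower of 31, namely the oxidase gene CKX1 (0.67 ± 0.18), the synthesis gene IPT7 (-0.74 ± 0.16) and the phosphotransfer gene AHP1 (-1.05 ± 0.25). Brassinosteroid and gibberellin genes had 1 higher and 2 lower of 28: BAS1 (1.49 ± 0.29), which inactivates brassinosteroids, and the synthesis genes DWF4 (-0.77 ± 0.17) and CYP90D1 (-0.69 ± 0.15). ACS8 kept its call in every fit without 1 library, CYP707A4 lost it without mock replicate 1 (adjusted p = 0.0537), and the other 7 lost it in at least 2 of these 4 fits (adjusted p up to 0.503 for CKX1, without NPA replicate 2). The glutamine synthetase gene GLN1;3 was the 1 call among 25 measured nitrate genes, 4% beside 3.27% of all tested genes called lower. The nitrate list does not hold NRT2.6 (described above). GLN1;3 stood at 88.1 and 86.6 TPM in mock and 36.1 and 34.7 TPM under NPA (log2 fold change -1.28 ± 0.19, adjusted p = 6.41e-04).

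No gene was called by limma in the lists for flavonoids (36 measured), salicylate and defence (31), photosynthesis (48), leaf senescence (27), hypoxia (12), the circadian clock (23) and sugar and starch (36). At an unadjusted p under 0.05 these lists held 1, 1 and 1 lower genes for salicylate, senescence and sugar, and 2 higher for sugar. List medians lay between -0.12 (flavonoids) and 0.29 (senescence).

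**Figure D5:**
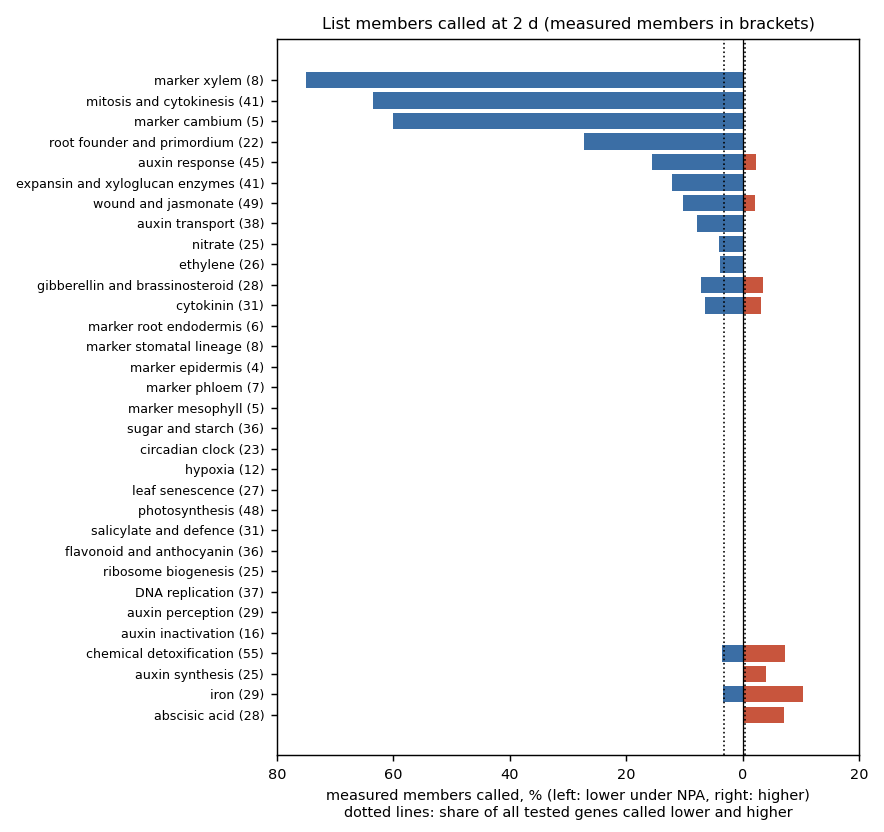
Bars give the share of measured members of each list called lower (blue, to the left) or higher (red, to the right) at 2 d, with dotted lines at 3.27% and 0.421%, the shares over all tested genes. Xylem markers (75%), mitosis (63.4%) and cambium markers (60%) have the longest bars to the left, iron genes (10.3%) the longest to the right.

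Most genes called lower at 2 d were called lower at later times too. Fewer of them were called at earlier times, when fewer genes were called in all. The comparisons at different times share no libraries. In all, 1.89% of tested genes were called at 24 h, 5.74% at 3 d, 9.91% at 4 d and 17.1% at 5 d. Called higher were 0.881% at 6 h, 0.605% at 4 d and 2.04% at 5 d. Of the 676 genes called lower, 539 were also lower at 3 d (79.7% of the 676 and 50.8% of the 1061 called then), and 621 at 5 d (91.9% and 19.9% of 3118). At 24 h 204 were lower (30.2% and 67.1% of 304) and at 6 h 86 (12.7% and 61% of 141). Called or not, 96.2% of the 676 had a log2 fold change below 0 at 24 h (median -0.52 beside -0.08 for all tested genes). At 6 h 82.4% had one below 0 (median -0.21 beside -0.02). Of the 87 genes called higher, 42 were higher at 24 h (48.3% of each list, since 87 genes were called higher then too), 30 at 3 d (34.5% and 24.2% of 124) and 24 at 6 h (27.6% and 13.2% of 182). Called lower at all 6 other times were 46 genes and at none 22. Among the 87 the numbers were 5 and 12.

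Few genes were called for an NPA effect at 2 d that differed from the effect at other times. With 2 libraries per group, a gene that was not called may still differ. Against the mean effect of the 6 other times 19 genes were called (0.092%), in each of which the effect at 2 d was the higher. At an unadjusted p under 0.05 (limma) the effect at 2 d was lower for 197 genes and higher for 386. PELPK1, a cell wall protein gene, stood at 0.33 and 0.43 TPM in mock and 3.15 and 3.92 TPM under NPA (log2 fold change 1.71 ± 0.20, adjusted p = 5.18e-05), at 3 d at 2.57 and 2.07 TPM in mock and 20.24 and 17.5 TPM under NPA, and at 5 d at 47.9 and 55.3 TPM in mock and 7.68 and 5.04 TPM under NPA. Its log2 fold change was 2.58 at 3 d, above that at 2 d, and -2.86 at 5 d. The mean of the 6 other effects was exceeded at 2 d by 2.05 ± 0.22 (adjusted p = 0.000125). For LAC7 the excess was 1.25 ± 0.22 (adjusted p = 0.0385), a call that 18 of 28 fits without 1 library lost. CDEF1, a cutin-degrading enzyme gene, and EXPA17, an expansin gene of lateral roots, were listed at 0 in all 4 libraries at 2 d and reached 16.3 and 17.5 TPM and 16.5 and 21.9 TPM in mock at 5 d. Their differences, 1.16 ± 0.10 (adjusted p = 1.4e-05) and 1.44 ± 0.21 (adjusted p = 0.00709), thus come from the later times. The EXPA17 call was lost without any 1 of the 4 libraries of 2 d (adjusted p up to 0.0772).

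Against the effect at 24 h 3 genes were called, all lower at 2 d (0.0145%), and at an unadjusted p under 0.05 there were 456 lower and 227 higher. For PR-1-LIKE mock stood at 2.19 and 2.94 TPM and NPA at 0.5 and 0.49 TPM at 24 h, and the difference was -2.01 ± 0.24 (adjusted p = 0.0033). The others had no symbol and were named after their values were seen: AT2G38380, a peroxidase gene (-2.34 ± 0.29, adjusted p = 0.0033), and AT5G10580, a gene of unknown function (-1.41 ± 0.21, adjusted p = 0.0293). From 2 d to 3 d 34 genes were called (0.165%), 15 with a higher and 19 with a lower effect at 3 d. LCR25, a small cysteine-rich protein gene, stood at 0.6 and 1.4 TPM in mock at 2 d and at 11.0 and 11.7 TPM at 3 d, and was listed at 0 under NPA at both times. Its difference on the log2(TPM + 1) scale was -2.65 ± 0.34 (adjusted p = 0.000882).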

How the data were processed

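RNA was extracted with TRIzol, per the labels' protocols, from the wounded region of detached leaf blades. The authors deposited TPM values per gene, 1 table for mock and 1 for NPA, with the same T0 libraries in both (used once). Trim Galore 0.5.0, STAR 2.7.2b, RSEM 1.3.2 and TAIR10 are named in the submitters' processing notes. Depth is unknown, so no counting interval is given. Here log2(TPM + 1) of genes with 1 TPM or more in at least 2 libraries was fitted with limma 3.58.1 (group means, 30 libraries, mean-variance trend). Contrasts were NPA minus mock at 2 d, and its difference from the mean of the other times, from 24 h and from 3 d. A test on simulated data preceded the fits. The comparison, the members and the gene lists were chosen with earlier results of these data known. Of 1001 list entries 944 matched a gene. Names and coordinates are from RefSeq TAIR10.1.

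Genes named were 16 chosen by role and the 10 highest and 10 lowest called genes. These highest and lowest genes had a symbol, groups that did not overlap and a mean of at least 10 TPM in the higher group. Also named were the called members of each list with the largest change (4 at most), and up to 4 genes each way per difference test. Promoters were those of the 3 lowest and 3 highest called genes of both lists named. Of these, 1 gene's values and 1 promoter are not reported here. Alternatives were the pseudocount, the filter, TMM factors computed on TPM, quantile normalization, rescaling without organelle or the 20 highest genes, no trend, other sets of libraries, a minimum change, a replicate block, and each library left out.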

Additional observations from a re-analysis of the deposited data

Results flagged for a closer look

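In each of these results the NPA effect at 2 d differed from that at other times by limma's test of the difference itself, on log2(TPM + 1). Against the mean effect of the 6 other times, PELPK1 differed by 2.0519, LAC7 by 1.2483, EXPA17 by 1.4353, CDEF1 by 1.1569 and PLT7, an AP2 factor gene, by 0.6372. PELPK1 kept this call in 28 of 28 fits without 1 library, PLT7 in 15 (adjusted p up to 0.286) and LAC7 in 10 (up to 0.462). EXPA17 and CDEF1 were listed at 0 in all 4 libraries of 2 d, so their values hold no effect at 2 d and come from later times. For PLT7 the log2 fold change was 0.11 at 2 d and -0.78, -0.99 and -1.23 at 3 d, 4 d and 5 d. No group mean of PLT7 exceeded 2.31 TPM. Its call was lost with a pseudocount of 0.1 (limma, adjusted p = 0.366), quantile normalization (0.16), no T0 libraries (0.0523) or a replicate block (0.601). LAC7 lost its call under these settings as well, and EXPA17 with the replicate block (0.124).

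Between 24 h and 2 d the effect on PR-1-LIKE differed by -2.0067, and it was called in 8 of 8 fits without 1 library (adjusted p up to 0.0464), but not with a pseudocount of 0.1 (0.165) or a replicate block (0.298). From 2 d to 3 d the effects on LCR25, PLT7 and CDEF1 differed by -2.6536, -0.8943 and -0.7225. LCR25 was called in 8 of 8 fits without 1 library, but not with a pseudocount of 0.1 (adjusted p = 0.672) or a replicate block (0.0511), PLT7 in 5 and CDEF1 in 0 (adjusted p from 0.0658 to 0.13).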

How the results depend on the processing

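At 2 d 87 genes were called higher and 676 lower, and the 3 tests of a difference (against the mean of the other times, against 24 h, and 3 d against 2 d) called 19, 3 and 34. With a mean of at least 5 TPM the counts at 2 d were 34 and 263, and the differences called 3 (mean of other times) and 4 (3 d). With a minimum log2 fold change of 1 they were 6 and 35, and the differences called 0, 0 and 1. The 4 libraries alone gave 0 and 0 (469 and 2386 at an unadjusted p under 0.05, smallest adjusted p = 0.0943). TMM factors (115 and 555) and quantile normalization (112 and 528) moved the median of all genes from -0.06 to 0.03 and 0.02, with 82.8% and 82.5% of calls lower beside 88.6%. The differences called 8, 0 and 15 with a pseudocount of 0.1, 80, 9 and 70 with no filter, 44 (mean) and 52 (3 d) with a pseudocount of 5, 9 (mean) after quantile normalization, 45 (mean) and 5 (24 h) with no trend and 7 (24 h) without T0. Leaving out 1 library gave 33 to 69 higher and 283 to 358 lower, and 9 to 14, 2 to 12 and 25 to 34 for the differences (12 without NPA 24 h replicate 2). The cause was not tested.

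Replicate numbers were not used as pairs in the main fit. The correlation of same-numbered deviations ran from -0.58 at 12 h to 0.33 at 2 d, so it was highest at the time compared here. Between the groups at 2 d, Pearson's r was 0.969 and 0.974 for same-numbered libraries and 0.963 and 0.964 for the others. Whether same-numbered libraries belong together was not tested. With a replicate block the counts were 38 and 247, and 5, 0 and 5.

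Log2 fold changes of 6 genes that were not called changed sign: LAX3 to 0.0095 (TMM), 0.0857 (quantile) and -0.1754 to 0.0363 (leave-one-out), YUC8 to 0.0382 (quantile) and -0.1792 to 0.0184 (leave-one-out), IAA29 to 0.0751 (quantile) and -0.3179 to 0.1675 (leave-one-out), WOX5 to 0.1019 (quantile) and -0.1497 to 0.0683 (leave-one-out), PIN3 -0.0189 to 0.119 and GH3.3 -0.198 to 0.4194 (both leave-one-out). List medians near 0 also changed sign with scaling, for auxin transport (0.02 with TMM), auxin inactivation, ethylene, cytokinin, salicylate, hypoxia and the stomatal lineage markers (0.09 after quantile normalization).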

Other observations

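Gene families taken from the product names were chosen after their values were seen and were not tested. Of all tested genes 3.27% were called lower and 0.421% higher. Of 40 kinesin and microtubule motor genes 18 were lower under NPA (45%) and 0 higher, with a median log2 fold change of -0.42 (-0.35 with TMM factors, -0.27 after quantile normalization). Some of them, HIK, ATK1, ATK5, POK1 and POK2, are also in the mitosis list. Of 318 ribosomal protein genes 7 were called lower (2.2%, near the share of all tested genes) and 0 higher, with a median of -0.40 (-0.29 and -0.33 under these scalings). At an unadjusted p under 0.05 (limma), 152 of the 318 were lower and 1 higher, beside 2213 and 390 of all 20654 tested genes. Log2 fold changes below 0 were found in 275 of the 318 (86.5%), beside 61% of all tested genes. The ribosomal protein genes summed to 62316 and 57234 TPM in mock and to 49136 and 45767 TPM under NPA, so the sums of the groups did not overlap. Of 92 histone genes 0 were called by limma and 14 were lower at an unadjusted p under 0.05, with a median of -0.23.

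Among families of secreted proteins, 7 of 44 peroxidase genes were lower (15.9%) and 1 higher (2.27%), and 7 of 41 lipid-transfer genes were lower (17.1%) and 2 higher (4.88%). Of 33 invertase and pectin methylesterase inhibitor genes 5 were lower (15.2%) and 1 higher (3.03%). Pectin lyase-like genes (7 of 42, 16.7%) and thaumatin genes (3 of 13, 23.1%) had lower calls and 0 higher. The peroxidase gene Prx37 stood at 142 and 165 TPM in mock and at 28.99 and 30.6 TPM under NPA. Of 46 genes with thioredoxin in the product name 3 were higher (6.52%), namely AT1G03020, AT4G15670 and AT4G15690, and 0 lower. The product name alone does not show that these 3 are thioredoxins.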
